A study of Mus musculus with 6 samples.

Results

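The genes described here are 9 transcription factor genes that specify or maintain the insulin-producing β cells of the pancreatic islet: *Pdx1*, *Nkx2-2*, *Nkx6-1*, *Neurod1*, *Isl1*, *Mafa*, *Foxa2*, *Insm1* and *Rfx6*. The rule names them for their known role in the islet and uses no measured value. Earlier results of these data were known when they were chosen. They are 9 of 22380 protein-coding genes with an annotated start in the mouse genome build mm9. Every ATAC-seq peak that overlapped the body of one of these genes or the 10 kb on either side was taken, and was called a start-site peak if its interval came within 1 kb of an annotated transcript start, and another peak otherwise.

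ATAC-seq was performed on 3 mouse cell lines, with 2 samples each, an assay in which Tn5 transposase cuts and tags open chromatin, so that sequenced fragments accumulate there. The line called Pax6-HIGH (β-TC3) came from an insulinoma, Pax6-ON (MV+) from lens epithelia of a wild-type C57BL6 mouse and Pax6-OFF (RAG) from a BALB/c renal adenocarcinoma, and these names refer to how strongly each line transcribes *Pax6*. All were grown untreated in the same medium, each cell type is represented by a single established line, and no authentication of the lines was performed. The deposited calls pool both samples of a line, so each value below rests on 1 call per line, has no replicate error and was not tested.

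β-cell identity is held by a network of transcription factors that bind each other's regulatory DNA as well as the insulin genes. Forkhead, homeodomain and RFX factors act early in pancreatic endoderm, the zinc-finger and basic helix-loop-helix factors act as endocrine cells form, and the Maf factor marks mature β cells. Accessible DNA at a gene start is common to active and poised genes, whereas accessible DNA away from starts differs more between cell types, so both were recorded.

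For Pax6-HIGH, Pax6-ON and Pax6-OFF cells in turn, MACS2 was given 100254099, 130955836 and 102223606 fragments and called 28024, 9821 and 14022 peaks. No peak had fewer than 25, 30 and 25 fragments at its summit in the respective line, so a gene without a peak did not pass the call threshold and was not shown to be closed. Because the lines differ in number of peaks, each pileup (how many fragments covered a peak's summit) was placed among all peaks of its own line as a percentile. Nuclei of Pax6-ON cells were released with 0.2% NP40 and those of the other lines with 0.1%, a difference that cannot be told apart from that between the lines.

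The Pax6-HIGH line was accessible at more of the 9 genes than either other line. Of the 9 genes, 7 had a Pax6-HIGH, 3 a Pax6-ON and 1 a Pax6-OFF start-site peak, and of all protein-coding genes 46.5%, 21.5% and 36.1% had one. The Pax6-HIGH count lay above its background share, the Pax6-ON count was 33.3% of the genes, and the Pax6-OFF count was 11.1% and lay below its background share. The genes with a start-site peak in Pax6-HIGH cells were *Nkx6-1*, *Neurod1*, *Isl1*, *Mafa*, *Nkx2-2*, *Foxa2* and *Rfx6*. Of these, *Neurod1*, *Nkx2-2*, *Foxa2* and *Rfx6* had one in that line only (4 of 9, against 11.1% of all genes), *Nkx6-1* and *Isl1* shared theirs with Pax6-ON cells, and *Mafa* had one in all 3 lines (1 of 9, against 17.5% of all genes). *Pdx1* and *Insm1* had no start-site peak in any line.

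**Figure D1:**
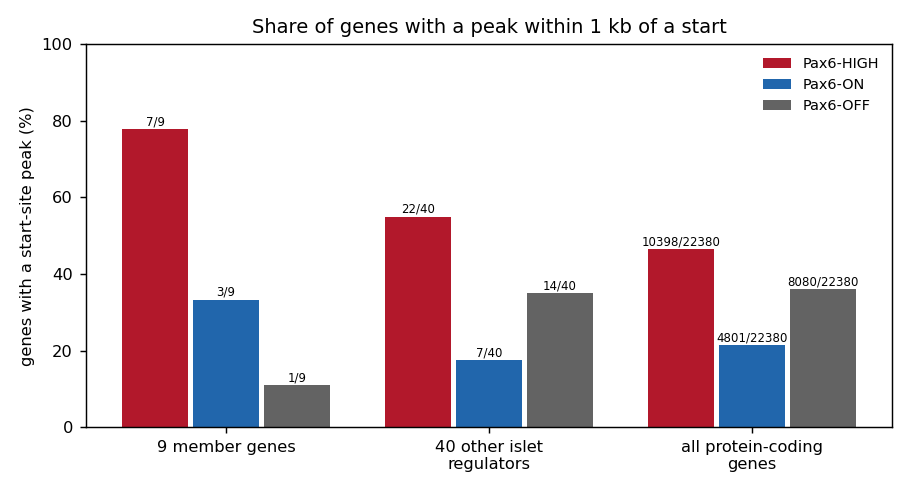
Share of genes with a peak within 1 kb of an annotated start (vertical axis, percent) in the 9 genes, in 40 other islet regulators and in all protein-coding genes, with 1 bar per cell line and the counts above the bars. The 9 genes range from 77.8% in Pax6-HIGH to 11.1% in Pax6-OFF cells, whereas the 40 other regulators range from 55.0% to 17.5%, with the lowest bar in Pax6-ON cells.

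Peaks away from the starts showed the same order of the lines at the top. At least 1 such peak lay at 5 of 9 genes in Pax6-HIGH cells (*Pdx1*, *Nkx2-2*, *Neurod1*, *Isl1* and *Insm1*), against 38.2% of all genes. In the other lines only *Nkx2-2* had one, which is 1 of 9 genes in each, against 13.8% (Pax6-ON) and 23.8% (Pax6-OFF) of all genes. Counting peaks of both kinds, every one of the 9 genes had a Pax6-HIGH peak, 4 had a Pax6-ON peak and 2 a Pax6-OFF peak, against 61.6%, 30.6% and 49.0% of all genes. For 5 genes, *Foxa2*, *Insm1*, *Neurod1*, *Pdx1* and *Rfx6*, all peaks came from Pax6-HIGH cells, a pattern that 13.4% of all genes had.

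In all, the 288 kb searched around the 9 genes held 19 Pax6-HIGH, 4 Pax6-ON and 2 Pax6-OFF peaks. Per 100 kb this was 6.59, 1.39 and 0.693 peaks, and the windows of all protein-coding genes held 1.82, 0.63 and 1.07. Per gene the means were 2.11, 0.444 and 0.222 peaks, against 1.19, 0.412 and 0.7 over all genes. The median number of Pax6-HIGH peaks was 1 per gene, both for the 9 genes and over all genes. When every line was reduced to its 9821 peaks of smallest q-value, 10 Pax6-HIGH, 4 Pax6-ON and 1 Pax6-OFF peaks remained, and *Rfx6* lost its start-site peak. The values over all genes were not recomputed on these reduced lists, so the comparison with all genes is not given at equal peak number. The median window of the 9 genes was shorter, at 27.1 kb, than that of all genes, at 35.4 kb. The excess in Pax6-HIGH cells was uneven: *Isl1* alone held 6 of the 19 peaks, a number that 1.92% of all genes reached, and *Nkx2-2* held 4, which 5.47% reached. *Pdx1* and *Neurod1* held 2 each, which 29.0% of genes reached, and the other 5 genes held 1 each, which 61.6% reached. On the 5 chromosomes that carry the genes, the share of each line's peaks lay between 3.48% and 8.24%, and the median Pax6-HIGH pileup was 56 fragments on all 5.

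**Figure D2:**
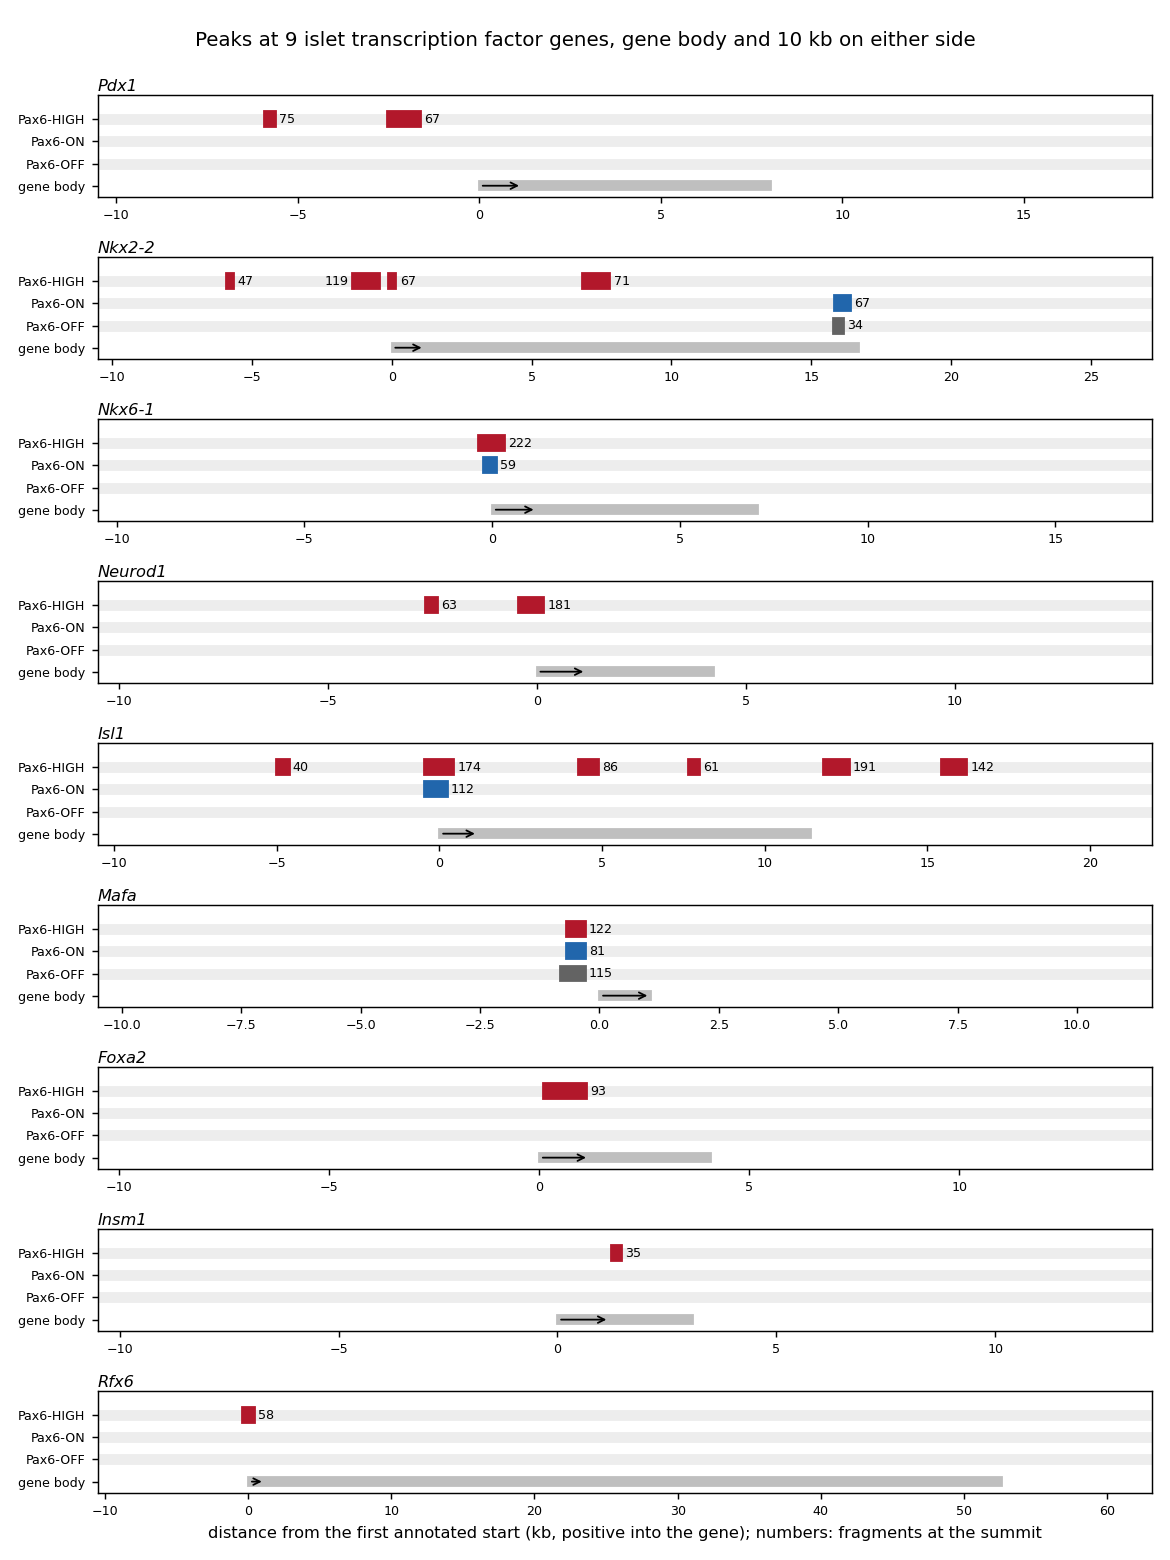
Peaks called in each line (coloured boxes, drawn to scale, with the fragments at the summit beside them) against the distance in kb from the first annotated start of each gene, with positive values running into the gene (grey bar, arrow in the direction of transcription). Pax6-HIGH peaks occur in all 9 panels, and the only Pax6-ON and Pax6-OFF peaks without a Pax6-HIGH peak at the same place lie near the 3′ end of *Nkx2-2*.

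Merging overlapping intervals over the lines gave 20 separate sites. Of these, 10 were away from starts and called in Pax6-HIGH cells only, and 6 were start-site peaks called in Pax6-HIGH cells only. These were 10 of 11 sites away from starts and 6 of 9 start sites, and over all protein-coding genes 64.0% of 12248 and 27.1% of 11234 merged sites were of that line alone. Sites of a gene were counted singly, and *Isl1* held 5 of the 10 and *Nkx2-2* 3 of the 6. At *Nkx6-1* and *Isl1*, 2 further start sites, the Pax6-HIGH peak met a Pax6-ON peak, at *Mafa* 1 start site held a peak of all 3 lines, and at *Nkx2-2* 1 site away from starts held a Pax6-ON and a Pax6-OFF peak. Counted by peak, none of the 10 Pax6-HIGH peaks away from a start and 3 of the 9 at starts overlapped a peak of another line, against 15.3% and 69.9% of such peaks at all protein-coding genes.

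Ranked by their strongest Pax6-HIGH start-site peak, the 7 genes with one ran from *Nkx6-1* to *Rfx6*. The summit pileups, with 95% exact Poisson intervals that cover counting error only, were 222 fragments for *Nkx6-1* (194 to 253), 181 for *Neurod1* (156 to 209) and 174 for *Isl1* (149 to 202). *Mafa* followed with 122 fragments (101 to 146) and *Nkx2-2* with 119 (98.6 to 142). *Foxa2* had 93 fragments (75.1 to 114) and *Rfx6* 58 (44.0 to 75.0). In this order the intervals of *Isl1* and *Mafa* were separate, those of *Foxa2* and *Rfx6* were separate by less than 1 fragment, and all other neighbours overlapped. As percentiles among all Pax6-HIGH peaks these were 97.5, 95.5, 94.9, 87.8, 87.1, 78.6 and 54.7. The median percentile was 87.8 (n = 7), against 71.9 for the strongest start-site peak of the 10398 protein-coding genes with one. In Pax6-ON cells the order was *Isl1* (112 fragments, 92.2 to 135), *Mafa* (81, 64.3 to 101) and *Nkx6-1* (59, 44.9 to 76.1), with overlapping intervals between neighbours, and the median percentile was 72.3 (n = 3) against 56.0 over 4801 genes. The single Pax6-OFF peak, at *Mafa*, stood at percentile 93.4, against a median of 60.8 over 8080 genes.

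**Figure D3:**
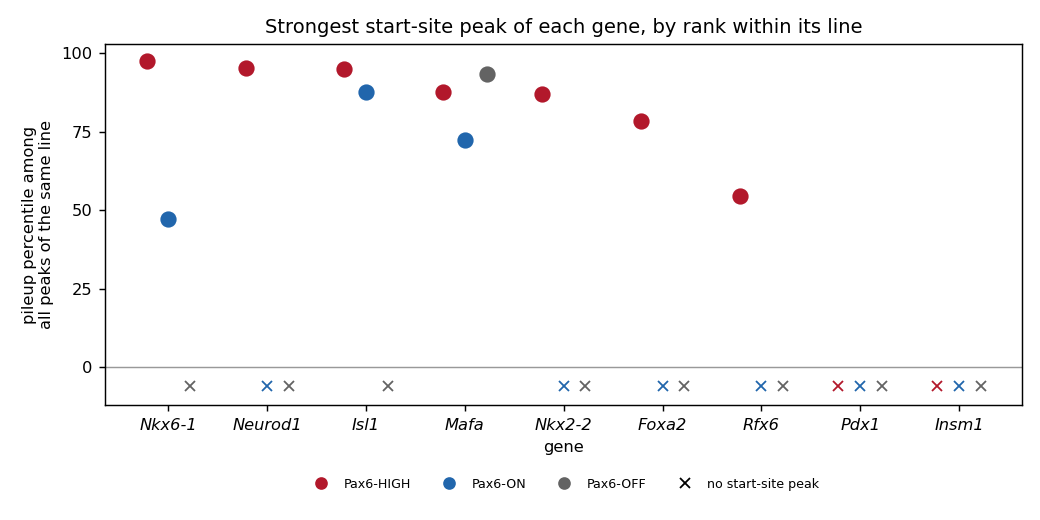
Strongest start-site peak of each gene as a pileup percentile among all peaks of the same line (vertical axis, 0 to 100), with 1 point per line and crosses where no start-site peak was called. *Nkx6-1* lay at percentile 97.5 in Pax6-HIGH and 47.1 in Pax6-ON cells, *Isl1* lay at 94.9 and 87.8, and *Mafa* at 87.8, 72.3 and 93.4 in Pax6-HIGH, Pax6-ON and Pax6-OFF cells. The lists ranked differ in length between the lines.

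*Pdx1* encodes a homeodomain factor required for the pancreas to form and, later, for insulin transcription. The gene (ENSMUSG00000029644.6, chr5:148081535-148089584, plus strand) had no peak within 1 kb of its start in any line. In Pax6-HIGH cells a pair of peaks lay upstream. The farther, of 341 bp with its summit 5805 bp before the start, had 75 fragments (fold enrichment over local background 5.94, percentile 68.9). The nearer, of 960 bp with its summit 2411 bp before the start, had 67 fragments (fold enrichment 4.30, percentile 63.0). Both summits lay in an intron of the noncoding gene 2210019I11Rik on the opposite strand. The nearest peaks to the gene in Pax6-ON and Pax6-OFF cells were 14636 and 14433 bp away. The 201 bases centred on each upstream summit are shown in mm9, because these are the only accessible sites at the gene that were called; the capitals mark a NeuroD-type E-box (CATCTG, the reverse complement of CAGATG) in the farther and the letters CTAATG, which LIM-homeodomain factors such as Isl1 can bind, in the nearer.
*Pdx1* farther upstream peak, chr5:148075630-148075830, plus strand: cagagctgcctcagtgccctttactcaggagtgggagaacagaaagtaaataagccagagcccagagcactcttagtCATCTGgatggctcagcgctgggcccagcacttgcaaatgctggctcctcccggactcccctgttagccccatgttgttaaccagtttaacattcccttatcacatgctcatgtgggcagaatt
*Pdx1* nearer upstream peak, chr5:148079024-148079224, plus strand: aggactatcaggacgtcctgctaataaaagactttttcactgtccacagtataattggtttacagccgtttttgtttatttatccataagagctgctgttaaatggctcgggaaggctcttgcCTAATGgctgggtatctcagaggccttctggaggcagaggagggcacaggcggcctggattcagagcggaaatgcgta
These letters are matches in the reference and not sites of measured binding.

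*Foxa2*, a forkhead factor that opens chromatin early in endoderm, and *Rfx6*, a winged-helix factor of the RFX family needed for islet development, each had a single peak in Pax6-HIGH cells and none in the others. The *Foxa2* peak (gene ENSMUSG00000037025.5, chr2:147868613-147872705, minus strand) was long, at 1048 bp (percentile 91.3 by length), with 93 fragments (fold enrichment 4.32). Its summit lay in an intron, 452 bp upstream of the nearest of 4 annotated starts. The nearest peaks in Pax6-ON and Pax6-OFF cells were 114460 and 114496 bp from the gene.

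The *Rfx6* peak (gene ENSMUSG00000019900.10, chr10:51397562-51450235, plus strand) was 935 bp long with 58 fragments (fold enrichment 3.73), the lowest pileup among the strongest start-site peaks of the 7 genes. Its summit lay 4 bp before the first of 3 annotated starts. The RefSeq start of the gene lies 7762 bp into it, and no line had a peak within 1 kb of that position, so under RefSeq starts *Rfx6* counted as having no start-site peak. The nearest peaks of Pax6-ON and Pax6-OFF cells were 123808 and 502988 bp away. The 104 bases that run up to the start are shown, with the capitals on TGTCCCC, a match on the other strand to GGGGNCA, the core letters searched for the zinc-finger factor Insm1.
*Rfx6* upstream of the first start, chr10:51397458-51397561, plus strand: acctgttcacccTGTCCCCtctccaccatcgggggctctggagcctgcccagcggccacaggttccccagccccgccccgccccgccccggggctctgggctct

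*Nkx2-2* encodes an NK2-class homeodomain factor that represses other endocrine fates in β cells. The gene (ENSMUSG00000027434.9, chr2:147003282-147019979, minus strand) has 4 annotated starts and held 4 Pax6-HIGH peaks. The strongest, of 999 bp, had 119 fragments (fold enrichment 4.43), and its summit lay 874 bp before the first start and its edge 423 bp from it. A peak of 315 bp lay over the first exon, with 67 fragments (fold enrichment 2.47). A peak of 1029 bp in an intron, 795 bp before an internal start, had 71 fragments (fold enrichment 3.58). The other Pax6-HIGH peak was 319 bp long and weaker, with 47 fragments, a fold enrichment of 3.75 and its summit 5876 bp upstream.

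The far end of *Nkx2-2* behaved otherwise. Pax6-ON cells had a peak of 590 bp with 67 fragments (fold enrichment 4.48, percentile 58.7) and Pax6-OFF cells one of 383 bp with 34 fragments (fold enrichment 2.95, percentile 13.6) near the 3′ end of the gene model, with summits 63 bp apart. No Pax6-HIGH peak was called there, so this was the only site of the 20 that lacked that line. The upstream Pax6-HIGH peak is shown because the 150 bp on either side of its summit held matches to 3 of the letter sets searched. Only 1 of these lies in the shorter stretch shown. It is TGACTCA, which AP-1 factors bind, and is in capitals.
*Nkx2-2* upstream peak, chr2:147025755-147025955, minus strand: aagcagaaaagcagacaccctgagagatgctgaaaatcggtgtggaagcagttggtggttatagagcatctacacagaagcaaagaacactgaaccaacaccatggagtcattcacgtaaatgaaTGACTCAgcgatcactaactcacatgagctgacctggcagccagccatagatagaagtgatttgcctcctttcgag
The same AP-1 letters (TGANTCA) were found around 3 of the 4 Pax6-HIGH summits of this gene.

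*Neurod1* encodes a basic helix-loop-helix factor that drives endocrine differentiation and activates the insulin promoter. Its start-site peak in Pax6-HIGH cells (gene ENSMUSG00000034701.8, chr2:79292678-79296908, minus strand) was 633 bp long with 181 fragments (fold enrichment 5.01, percentile 95.5) and a summit 3 bp before the first start. The gene *Cerkl* begins 34 bp farther upstream on the same strand, so the peak cannot be assigned to one of them. A peak of 302 bp with its summit 2384 bp before the start had 63 fragments but a fold enrichment of only 1.98, lower than nearly all Pax6-HIGH peaks (percentile 0.7 by fold enrichment). It overlapped an exon of the long noncoding gene *Gm17325*. The nearest peaks of Pax6-ON and Pax6-OFF cells lay 53421 and 178148 bp from *Neurod1*.

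*Insm1*, a zinc-finger repressor of neuroendocrine cells, had the lowest pileup among the Pax6-HIGH peaks of the 9 genes. A single Pax6-HIGH peak of 247 bp lay in the coding sequence of this intronless gene (ENSMUSG00000068154.4, chr2:146047657-146050752, plus strand), with 35 fragments (fold enrichment 2.81, percentile 16.3) and its summit 1416 bp after the start. Pax6-ON and Pax6-OFF cells had their nearest peaks 286732 and 286598 bp from the gene. At the 1 kb limit, *Insm1* (edge 1220 bp from a start) and *Pdx1* (1591 bp) were the nearest outside, and the strongest *Nkx2-2* peak (423 bp) and the *Mafa* peak (281 to 287 bp) the farthest inside, so a limit of 2 kb gave 9 of 9 genes in Pax6-HIGH cells, against 47.8% of all genes.

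*Nkx6-1*, a homeodomain repressor that keeps β cells from adopting other islet fates, had the highest pileup of all. The Pax6-HIGH peak at its start (gene ENSMUSG00000035187.8, chr5:102087158-102094245, minus strand) was 727 bp long with 222 fragments (fold enrichment 7.02, q-value of 106 as −log10), and ranked 703 among the peaks of that line. Pax6-ON cells had a peak of 377 bp inside the same interval, with 59 fragments (fold enrichment 3.95), which ranked 5115. Both summits were at the same base, 157 bp before the start. The same site thus stood near the top of one list and below the median of the other. The nearest Pax6-OFF peak was 22637 bp from the gene. The 201 bases around the shared summit are shown, with the capitals on the forkhead letters TGTTTAC.
*Nkx6-1* start-site peak, chr5:102094302-102094502, minus strand: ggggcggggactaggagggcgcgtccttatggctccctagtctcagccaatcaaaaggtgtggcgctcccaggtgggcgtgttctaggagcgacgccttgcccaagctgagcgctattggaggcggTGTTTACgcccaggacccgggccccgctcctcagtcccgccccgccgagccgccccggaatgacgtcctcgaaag

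*Isl1*, a LIM-homeodomain factor found in all endocrine cells of the islet and in motor neurons, had the most peaks. At its start (gene ENSMUSG00000042258.5, chr13:117088478-117099896, minus strand) the Pax6-HIGH peak was 945 bp long with 174 fragments (fold enrichment 6.17) and the Pax6-ON peak 745 bp with 112 fragments (fold enrichment 7.45). The summits were 23 bp apart, and the percentiles of 94.9 and 87.8 were closer to each other than at *Nkx6-1*. The nearest Pax6-OFF peak was 713163 bp away. The 180 bases before the start are shown, with the 24 bases from one summit to the other in capitals.
*Isl1* start-site peak, chr13:117099897-117100076, minus strand: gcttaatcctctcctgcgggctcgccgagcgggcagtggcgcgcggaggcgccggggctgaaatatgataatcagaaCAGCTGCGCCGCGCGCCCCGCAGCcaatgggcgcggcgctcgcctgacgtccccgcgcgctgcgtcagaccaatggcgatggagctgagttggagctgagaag

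The other 5 *Isl1* peaks were called in Pax6-HIGH cells only. The strongest pair lay beyond the 3′ end of the gene in no annotated gene, with 191 fragments (fold enrichment 6.47, percentile 96.1) at 12134 bp from the start and 142 fragments (fold enrichment 5.87, percentile 91.4) at 15673 bp. The first of these exceeded the *Isl1* start-site peak by less than the counting error (174 fragments, 149 to 202). Peaks within the gene were weaker, with 86 fragments at 4749 bp and 61 at 7714 bp from the start, and the upstream peak had 40 fragments at 4924 bp before it. Over all 9 genes, the 10 Pax6-HIGH peaks away from starts comprised 5 upstream with 40 to 75 fragments, 3 within genes with 35 to 86 fragments and these 2 downstream of *Isl1*.

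**Figure D4:**
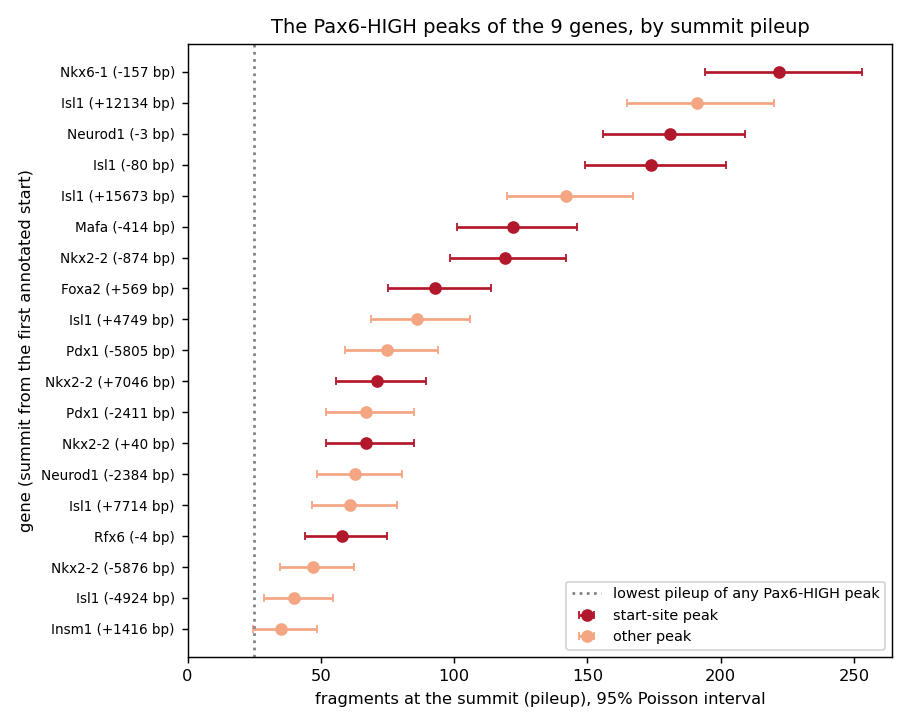
Fragments at the summit (horizontal axis, with 95% Poisson intervals) of the 19 Pax6-HIGH peaks, each named by its gene and by the distance of its summit from the first annotated start, with start-site peaks in dark red and other peaks in light red. The peaks run from 222 fragments at *Nkx6-1* to 35 at *Insm1*, and the *Isl1* peaks of 191 and 142 fragments are the only 2 away from a start above 100.

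*Mafa*, a basic leucine zipper factor that activates insulin in mature β cells, was the only gene of the 9 with a start-site peak in every line. The gene model (ENSMUSG00000047591.4, chr15:75577273-75578352, minus strand) is 1080 bp long and begins at the coding sequence, so the distance to the true start is not given by it, and no peak of any line covered the model's first base. The Pax6-HIGH peak was 404 bp long with 122 fragments (fold enrichment 6.77), the Pax6-ON peak 430 bp with 81 fragments (fold enrichment 5.40) and the Pax6-OFF peak 548 bp with 115 fragments (fold enrichment 6.38). The summits fell within 83 bp of each other, with the Pax6-ON and Pax6-OFF summits nearly together and the Pax6-HIGH summit closer to the gene. The percentiles were 87.8 among the 28024 Pax6-HIGH peaks, 72.3 among the 9821 Pax6-ON peaks and 93.4 among the 14022 Pax6-OFF peaks, lists of unequal length that give no order of the lines. No other peak lay within 10 kb of the gene in any line. A stretch of 30 bases is shown, with the RFX half-site letters GTTGCCA in capitals, centred 31, 37 and 114 bp from the Pax6-ON, Pax6-OFF and Pax6-HIGH summits.
*Mafa* upstream peak, chr15:75578866-75578895, minus strand: gctgggctccggGTTGCCAtggggataggc

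The letter sets were searched on both strands in each summit base and the 150 bp on either side. Among the 19 Pax6-HIGH peaks, TGANTCA (AP-1) occurred in 5, or 26.3%, against 12.3% of all Pax6-HIGH peaks. GGGGNCA (Insm1 core) occurred in 4 (21.1% against 20.7%), CAGATG (NeuroD-type E-box) in 3 (15.8% against 24.1%) and TNAAGTG (NK2) in 2 (10.5% against 12.1%). TAATTA (paired homeodomain core), CTAATG (LIM-homeodomain), TGTTTAC (forkhead) and GTTGCCA (RFX) occurred in 1 each (5.26%), where all peaks had 4.85%, 9.37%, 6.34% and 4.26%. TGCTGAC, the Maf half-site, which can overlap the AP-1 letters, occurred in none of the 19 and in 9.35% of all peaks. With 19 peaks, counts of this size say little about any of these letter sets.

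Base composition around the starts was recorded because CpG-rich starts are accessible in most cell types. In 1 kb centred on the first start, 6 of 9 genes (66.7%) had an observed over expected CpG ratio above 0.6, against 45.6% of all protein-coding genes. Of CpG-rich starts, 78.1% had a Pax6-HIGH, 37.2% a Pax6-ON and 64.4% a Pax6-OFF start-site peak, whereas of the others 20.0%, 8.22% and 12.4% had one. Apart from *Insm1* and *Pdx1*, no gene had a start-site peak in more lines than a gene of higher ratio. *Insm1* had the highest CpG ratio, 0.928, with no start-site peak, and *Mafa*, with 0.852, had one in every line. *Nkx6-1* (0.769) and *Isl1* (0.774) had peaks in 2 lines. *Neurod1* (0.681) and *Nkx2-2* (0.626), together with the CpG-poor *Foxa2* (0.57) and *Rfx6* (0.519), had peaks in Pax6-HIGH cells only, and *Pdx1* (0.564) had none. The part of base composition in the counts was not tested.

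MACS2 measured each peak against a local background, which was above the genome-wide value at most of the Pax6-HIGH peaks of these genes. At the 9 start-site peaks its ratio to the genome-wide value had a median of 2.21, from 1.26 at *Rfx6* to 3.00 at *Neurod1*, against 1.21 for all Pax6-HIGH start-site peaks. It was more than 5% above that value at 16 of all 19 peaks, against 50.1% of all Pax6-HIGH peaks. At the 3 Pax6-ON start-site peaks the ratio was 1.00, and at *Mafa* in Pax6-OFF cells it was 1.58. The local window of 6250 bp includes the peak itself, and what raised the background at these genes was not tested. The 9 Pax6-HIGH start-site peaks had a median length of 935 bp and the 10 others 410.5 bp.

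A fixed list of 40 other islet regulators, which holds relatives of the 9 genes and factors of other islet cells, was less sharply divided between the lines. Pax6-HIGH start-site peaks were called at 22 (55.0%), Pax6-ON ones at 7 (17.5%) and Pax6-OFF ones at 14 (35.0%), close to the shares of all genes (46.5%, 21.5% and 36.1%). Those with one in Pax6-HIGH cells only included *Foxo1*, *Gata4*, *Gata6*, *Meis2*, *Nkx6-2*, *Scrt1* and *St18*, and *Mlxipl* had one in Pax6-OFF cells only. *Pax6* itself had start-site peaks in Pax6-HIGH and Pax6-ON but not in Pax6-OFF cells, with the strongest at percentiles 95.0 and 66.3. Of the close relatives, *Rfx3* had a start-site peak in all 3 lines (89.8, 78.3 and 81.1 in Pax6-HIGH, Pax6-ON and Pax6-OFF). *Foxa3* had one in Pax6-HIGH (65.3) and Pax6-OFF cells (53.4), and *Nkx6-2* in Pax6-HIGH cells (40.3). *Neurod2*, *Foxa1*, *Isl2*, *Nkx2-4* and *Insm2* had no start-site peak in any line.

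The labelled cell types were checked against markers, and accessibility matched them only in part. Of 13 insulinoma markers, 4 had a start-site peak in Pax6-HIGH cells (*Chga*, *Chgb*, *G6pc2* and *Pcsk2*), 1 had one in Pax6-ON cells and none did in Pax6-OFF cells. The Pax6-HIGH share, 30.8%, was below the 46.5% of all genes. Any peak lay at 9, 3 and 2 of the 13 markers in Pax6-HIGH, Pax6-ON and Pax6-OFF cells, against 61.6%, 30.6% and 49.0% of all genes. The defining genes *Ins1* and *Ins2*, like *Pcsk1* and *Slc2a2*, had no peak in any line, and *Iapp* had no start-site peak. Among 8 markers of other islet cells, 3 had a start-site peak in Pax6-HIGH cells (37.5%, against 46.5% of all genes). Of these, *Gcg*, the glucagon gene of α cells, stood at percentile 97.4 and *Irx2* at 97.5. The peaks of the 9 genes therefore stand beside accessible starts of α-cell genes in this line, and the part of cells of another islet type was not tested. Of 10 lens epithelium markers, 1 had a start-site peak in Pax6-ON cells (*Maf*, which had one in all 3 lines). Pax6-HIGH cells had 2 (with *Hsf4*) and Pax6-OFF cells 3 (with *Cryab* and *Pitx3*), and *Cryaa* and *Foxe3* had none. In Pax6-ON, Pax6-HIGH and Pax6-OFF cells these shares were 10.0%, 20.0% and 30.0%. The shares of all genes were higher, at 21.5%, 46.5% and 36.1%, and also lowest in Pax6-ON cells. Of 10 kidney tubule markers, 3 had one in Pax6-OFF cells (*Cdh16*, *Pax2* and *Emx2*, or 30.0%, against 36.1% of all genes), 1 in Pax6-ON cells (*Emx2*) and none in Pax6-HIGH cells. Of 5 fibroblast or mesenchyme markers, only *Twist1* had one, in Pax6-ON cells (20.0%, against 21.5% of all genes).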

How the data were processed

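ATAC-seq of 3 mouse cell lines was analysed from the peak tables, 1 per line. Per the labels and the table headers, the authors trimmed reads with Trim Galore 0.4.1, aligned them to mm9 with Bowtie2 2.2.6 and SAMtools 1.6 and called peaks with MACS2 2.1.1 on both samples together, with no control, whole fragments and a q-value of 0.05. The deposited pileup is a signal, unscaled for depth. The deposited fold enrichment is its ratio to the local background, with a pseudocount of 1, and the authors' p-values and q-values are given as −log10. Whether duplicates were removed is not clear, and the call kept all that the input held. Summit pileups are chosen maxima, and their Poisson intervals cover counting error only.

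The members and lists were chosen with earlier results of these data known. Genes, starts and sequences came from NCBIM37 (the mm9 assembly) with GENCODE M1, and RefSeq starts were found for 7 of 9 genes by an exact match of the RefSeq promoter in NCBIM37. Peaks overlapping by at least 1 bp were counted. Python 3.11.15, pandas 2.3.3, NumPy 2.4.6, SciPy 1.17.1, pysam 0.24.0 and matplotlib 3.10.9 were used, and the counting was tested on simulated intervals. The genes named were the 9, relatives and 1-line genes of the 40 regulators (some are not reported here), and the 10 genes with a start-site peak and the most peaks of Pax6-HIGH cells alone. The peak lists in narrowPeak form held the same calls and were not used.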

Additional observations from a re-analysis of the deposited data

How the results depend on the processing

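No paired analysis was possible because both samples of a line were pooled in a single call, and for the same reason no sample could be left out. Of 91 alternative values for 12 results, 69 stayed within the limits set and 22 moved beyond them. The limits for counts were wide: 9 genes with a Pax6-HIGH start-site peak at 2 kb passed, where the main count was 7. The limit for the median percentile was narrow, a 95% binomial interval over the 28024 Pax6-HIGH peaks. It does not measure the spread among the 7 genes, so a move beyond it can be small. Whether any result reversed was not looked for. The median percentile of the strongest Pax6-HIGH start-site peaks, 87.8, became 86.9 at a q-value of 0.001, 75.8 with 9821 peaks per line, 86.7 for peaks over the start itself, 87.1 at 2 kb, 72.0 by fold enrichment, 90.0 by q-value, 89.6 within the same chromosome and 77.4 among start-site peaks. With 9821 peaks per line, the Pax6-HIGH peaks fell from 19 to 10, genes with a Pax6-HIGH peak away from the start from 5 to 2, Pax6-OFF peaks from 2 to 1 and Pax6-OFF genes with another peak from 1 to 0. The Pax6-HIGH start-site count was then 6, without *Rfx6*. With the peak required over the start itself, the Pax6-OFF start-site count was 0, and 2 genes each in Pax6-ON and Pax6-OFF cells had another peak. Counting gene bodies and start-site peaks alone left 12 Pax6-HIGH peaks and 2 genes with another peak. At 50 kb on either side there were 35 Pax6-HIGH and 6 Pax6-OFF peaks, and 8, 2 and 4 genes had another peak in Pax6-HIGH, Pax6-ON and Pax6-OFF cells. Neither at 50 kb nor with 9821 peaks per line was the share over all genes recomputed. RefSeq starts, an alternative added after seeing the data, with the GENCODE start kept for *Mafa* and *Insm1*, gave 6 genes in Pax6-HIGH cells, of which 3 had no start-site peak in the other lines. No called peak had fewer than 25 fragments in Pax6-HIGH and Pax6-OFF cells or 30 in Pax6-ON cells, the line with the most fragments and the highest genome-wide background (14.2, against 11.8 and 10.9).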

Other observations

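Among protein-coding genes outside the lists with a start-site peak in Pax6-HIGH cells and no Pax6-ON or Pax6-OFF peak in the gene body or 10 kb on either side, the 10 with the most Pax6-HIGH peaks were *Foxp2* (34 peaks), *Kcnd2* (16), *Dync1i1* (14), *Tmtc1* (14), *Robo1* (13), *Nxph1* (12), *Antxr1* (11), *Klhl29* (10), *Il1r1* (9) and *Reep1* (9). Such genes, members included, numbered 1660, and 7 of the 10 were on chromosome 6, which carries none of the 9 islet genes. The share of chromosome 6 among the 1660 genes or among all Pax6-HIGH peaks was not set beside this count. Their windows ran from 111 to 561 kb. *Neurod1*, with 2 peaks in 24.2 kb, was in a tie that began at place 289, and 43.2% of the 1660 had at least as many. *Foxa2* and *Rfx6*, with 1 peak each, were in the last tie, which began at place 718. All of the 1660 had at least as many, because a start-site peak was required.

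Within 100 kb of the 9 islet genes there were 47 Pax6-HIGH, 9 Pax6-ON and 10 Pax6-OFF peaks, where 10 kb had held 19, 4 and 2. Wider windows cannot hold fewer peaks, and no share over all genes was computed at this width.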
